A study of Rattus norvegicus with 57 samples.

Results

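Kidneys of rats killed 8 days after a single dose of 3 mg/kg cisplatin were compared with kidneys of control rats killed on the same day, across all genes measured. The comparison holds 10 of the 57 arrays of the study, 5 from 3 mg/kg cisplatin on day 8 and 5 from control on day 8, and each group was defined by the array titles. All animals were male Han Wistar rats, 8 weeks old, of the outbred stock Crl:WI(Han), and each was dosed once by intraperitoneal injection. Cisplatin, a platinum compound used against tumours, was diluted in saline, and the control rats received saline alone. RNA came from a homogenate enriched in kidney cortex and was read on Affymetrix rat expression arrays, 1 per animal, so every value averages over all cell types of the tissue. The protocol gives 6 animals per group, and 5 per group were analysed here. Further arrays were used beside this comparison: 5 kidneys of 1 mg/kg cisplatin on day 8, 5 each of 3 mg/kg and of control on days 3 and 5, and 5 of 3 mg/kg and 4 of control on day 26. The arrays of days 3 and 26 gave values for the time course. All 57 arrays, with those of 1 mg/kg on days 3, 5 and 26, entered the signal filter and the choice of probe sets. They also entered the fits to 57 arrays that are given as alternatives and as the error bars of the time course.

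Cisplatin enters the proximal tubule mainly through the organic cation transporter Slc22a2 and the copper transporter Slc31a1, binds DNA and injures the straight part of that tubule most. Injured tubule cells lose transport functions, switch on injury markers such as Havcr1 (kidney injury molecule-1) and the p53 target Cdkn1a, and surviving cells may dedifferentiate and divide. The nephron segments further along (thick ascending limb, distal convoluted tubule, collecting duct) recover salt, calcium, magnesium and water, and rodent cisplatin injury is known for wasting of salt, magnesium and water.

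Values below are array signals on a linear scale, as deposited, and changes are differences of log2(signal + 16), 3 mg/kg minus control, with the standard error of the fit after ±. Of 11683 genes tested, 2553 passed an adjusted p of 0.05, which is 21.9%. Of these, 1496 (12.8%) were higher in 3 mg/kg kidneys and 1057 (9.05%) were lower, and 267 (2.29%) moved at least 2-fold, 136 upwards and 131 downwards. With quantile normalization of the 10 arrays the split was 1285 higher and 1366 lower, so the balance of directions over all genes depends on the scaling. All 5 animals of 3 mg/kg lay above all 5 controls for 1099 genes (9.41%) and below them for 812 (6.95%). At least 4-fold changes numbered 16 upwards and 25 downwards. The median change over all genes was 0.04. This median and the shares of 12.8% higher and 9.05% lower are the background for the counts of gene lists below. Without control replicates 1 and 2, the highest controls for several proximal tubule genes below, 1361 genes were called, and without 3 mg/kg replicate 2 the number was 2866. In these bulk samples, fewer cells of a type and less RNA per cell cannot be told apart.

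**Figure D1:**
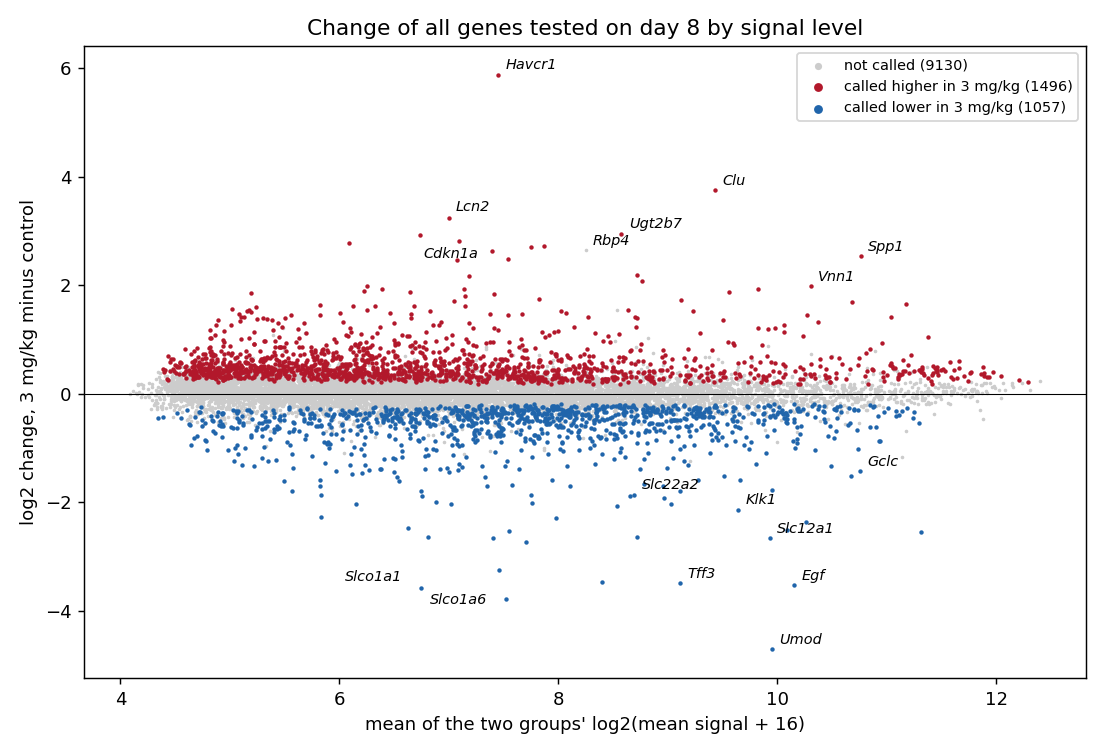
Log2 change (3 mg/kg minus control, y axis) of each of 11683 genes against its signal level (x axis, log2 of each group's mean signal plus 16, averaged over both groups), coloured by call. Havcr1 and Clu stand highest, and Umod, Slco1a6, Slco1a1, Egf and Tff3 stand lowest.

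The 3 mg/kg animals differed more among themselves than the controls did. The SD of the log2 signal was larger in 3 mg/kg than in control for 8637 genes (73.9%), with a median SD of 0.179 in 3 mg/kg and 0.119 in control. On the first principal component, which held 54.1% of the variance, 3 mg/kg replicates 1 to 5 scored -8.32, -33.5, -2.20, -28.2 and -28.1, and the controls scored between 18.8 and 23.0. Replicates 1 and 3 thus lay nearest the controls. Replicate 2 had the lowest median signal of the 3 mg/kg arrays, 20.3 against up to 25.7, and controls ranged between 20.5 and 22.9. The actin 3'/5' signal ratio, a measure of RNA integrity and labelling, was 5.30 ± 0.530 in 3 mg/kg and 5.32 ± 0.484 in control (SD, n = 5 each). The tissue label was checked on 6 proximal tubule markers: Slc5a2 was lower in 3 mg/kg, with values given below, and Slc34a1, Lrp2, Cubn, Slc22a6 and Aqp1 were not called. Other proximal tubule genes fell far, as described below. Of 12 tested genes of inner medulla, fat, adrenal gland and urothelium, 1 was called. It was Aqp4, listed for inner medulla and also for collecting duct, and it was higher in 3 mg/kg with no overlap (values below). Whether the samples differed in their content of medulla was not tested. The fat gene Cidec stood between 17.8 and 52.2 in 3 mg/kg and between 26.9 and 121 in control. The fat gene Adipoq stood between 26.0 and 38.3 in 3 mg/kg and between 22.9 and 27.9 in control. The adrenal gene Nr5a1 and the urothelial gene Upk3a were at most 12.4 and 17.6 in 3 mg/kg, and at most 11.1 and 9.20 in control. Adipoq, Nr5a1 and Upk3a were picked after their values were seen.

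Injury and repair markers of the tubule had the largest share of higher genes of the 38 lists: 24 of 30 tested members were higher in 3 mg/kg, 1 was lower, and their median change was 0.95. Between 23 and 24 were called higher when any 1 animal was left out. The lists were chosen with earlier results of these data known, so their ranking is a description. Havcr1, a phosphatidylserine receptor exposed on injured proximal tubule cells, had signals of 2177, 829, 680, 1581 and 1640 in 3 mg/kg kidneys against 4.95, 7.33, 10.2, 5.47 and 1.73 in control kidneys. Every control kidney was near the floor of the array and the lowest 3 mg/kg kidney was far above it, and the change was 5.88 ± 0.27 (adjusted p = 3.21e-07). Clu, the secreted chaperone clusterin, had 3608, 1581, 2931, 2134 and 2518 in 3 mg/kg against 166, 173, 165, 157 and 184 in control. The groups were far apart for Clu too, and replicate 2, not replicates 1 or 3, was the lowest of the treated animals (change 3.74 ± 0.17, adjusted p = 3.21e-07). Lcn2, the iron-siderophore binding protein NGAL, had 595, 219, 257, 425 and 442 in 3 mg/kg against 24.7, 22.5, 28.1, 19.7 and 27.8 in control. It rose by 3.23 ± 0.22 (adjusted p = 8.11e-06), with replicates 2 and 3 lowest.

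Further injury markers separated the groups with no overlap. Spp1, the matrix phosphoprotein osteopontin, had 4984, 3130, 4718, 4184 and 3639 in 3 mg/kg against 931, 420, 779, 635 and 794 in control, a rise of 2.54 ± 0.19 (adjusted p = 1.83e-05). All treated kidneys lay above all controls. Gpnmb, a membrane glycoprotein of phagocytic cells, had 185, 507, 77.2, 296 and 451 in 3 mg/kg against 17.9, 22.7, 19.5, 18.3 and 20.3 in control. The rise of 2.92 ± 0.38 (adjusted p = 0.000431) was largest in replicate 2 and smallest in replicate 3. Tnfrsf12a, the receptor of the cytokine TWEAK, rose by 2.72 ± 0.21, and Timp1, an inhibitor of matrix metalloproteinases, by 2.47 ± 0.18. S100a6, a calcium-binding protein of dividing and injured cells, rose by 2.18 ± 0.26, and the stress cytokine Gdf15 by 2.08 ± 0.50. Krt18, a keratin of simple epithelia, rose by 1.75 ± 0.26. Tff3, a secreted trefoil peptide of mucosal epithelia, was the exception in the list. It had 394, 30.5, 332, 49.3 and 68.3 in 3 mg/kg against 2166.03, 2751, 1204, 915 and 916 in control, and fell by 3.48 on the log2 scale (SE 0.59, adjusted p = 0.00207). Vcam1, an adhesion molecule linked to maladaptive repair, changed by 0.19 ± 0.13 (adjusted p = 0.329) and the progenitor marker Prom1 by 0.12 ± 0.19 (adjusted p = 0.682).

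**Figure D2:**
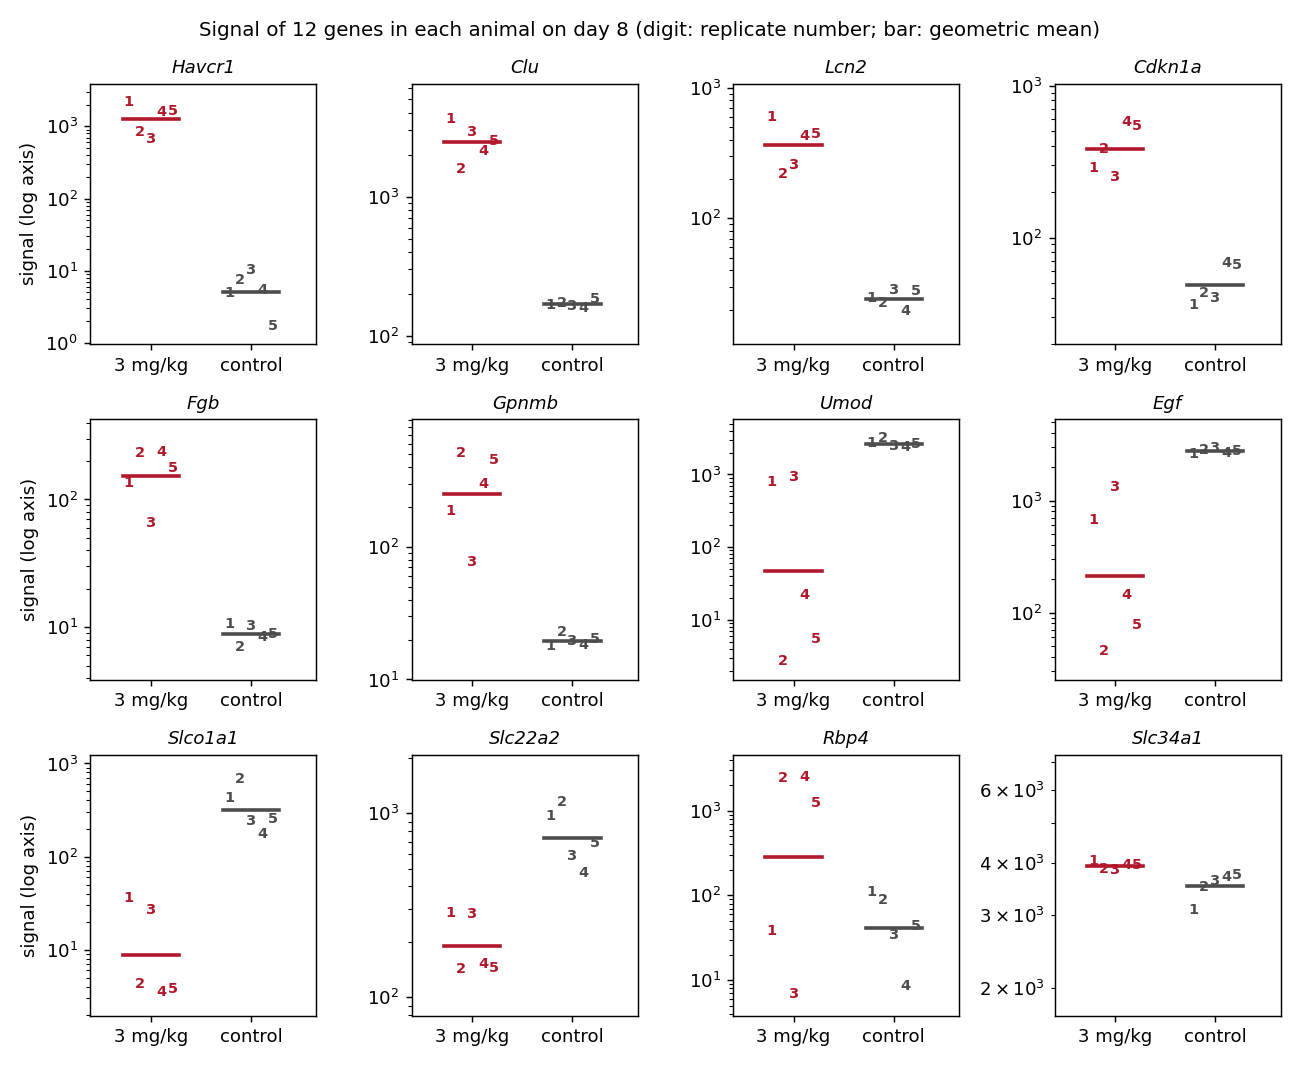
Signals of 12 genes in each kidney on day 8 on log axes, 3 mg/kg in red left of control in grey; digits are replicate numbers and bars are geometric means. Havcr1, Clu, Lcn2, Cdkn1a, Fgb and Gpnmb do not overlap between the groups, Umod, Egf and Slco1a1 are highest in replicates 1 and 3 among the treated kidneys, and Rbp4 is high in replicates 2, 4 and 5 alone.

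The 3 genes of fibrinogen rose in every treated kidney. Fibrinogen, the clotting protein made mainly by liver, is assembled from the chains encoded by Fga, Fgb and Fgg, which lie side by side on rat chromosome 2. Fga had 226, 473, 186, 578 and 339 in 3 mg/kg against 35.7, 38.0, 32.6, 33.9 and 27.5 in control, a rise of 2.81 ± 0.25 (adjusted p = 4.17e-05); another probe set of the gene rose less. Fgb had 134, 231, 64.9, 235 and 176 in 3 mg/kg against 10.6, 6.96, 10.2, 8.33 and 8.83 in control (2.78 ± 0.26, adjusted p = 5.22e-05). Fgg had 55.8, 45.9, 26.6, 71.5 and 73.6 in 3 mg/kg against 6.16, 0.403, 3.87, 2.53 and 1.39 in control (1.86 ± 0.18, adjusted p = 7.97e-05). Replicate 3 was the lowest treated kidney for each chain and still exceeded all controls. The 250 bases before each transcript start are shown because these neighbours moved together. They come from RefSeq (GRCr8), with matches to CTGGGAA, the core of the interleukin-6 response element known from the fibrinogen genes, in capitals, searched on both strands.
Fgg (chr2:170652833-170653082, plus strand): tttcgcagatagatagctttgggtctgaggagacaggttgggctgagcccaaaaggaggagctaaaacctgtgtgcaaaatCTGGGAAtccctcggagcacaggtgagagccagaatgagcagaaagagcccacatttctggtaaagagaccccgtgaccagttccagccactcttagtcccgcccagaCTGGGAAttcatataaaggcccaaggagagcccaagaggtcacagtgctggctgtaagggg
Fga (chr2:170671919-170672168, plus strand): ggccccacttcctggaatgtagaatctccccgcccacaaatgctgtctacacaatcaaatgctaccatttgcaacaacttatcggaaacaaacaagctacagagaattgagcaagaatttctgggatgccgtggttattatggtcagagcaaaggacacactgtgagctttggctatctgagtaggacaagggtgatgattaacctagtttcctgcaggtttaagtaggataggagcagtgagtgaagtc
Fgb (chr2:170700876-170701125, minus strand): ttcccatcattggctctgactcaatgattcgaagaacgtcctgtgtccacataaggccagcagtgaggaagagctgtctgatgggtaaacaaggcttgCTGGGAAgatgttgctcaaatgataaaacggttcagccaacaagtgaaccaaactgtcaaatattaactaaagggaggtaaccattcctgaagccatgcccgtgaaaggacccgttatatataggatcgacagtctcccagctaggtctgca
Fgg held 2 matches, 169 and 61 bases before the start, Fgb held 1, 152 bases before it, and Fga held 0. Of 27457 promoters of this length, 9.33% held at least 1 match. Among the wider clotting list, 11 of 19 tested genes were higher and 4 were lower. F2, which encodes prothrombin, rose by 0.96 ± 0.21 and the protease inhibitor A2m by 1.03 ± 0.17. Proc, the anticoagulant protein C, fell by 0.88 on the log2 scale and Serpinf2, the plasmin inhibitor, by 0.81.

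Targets of p53, the transcription factor switched on by DNA damage, were higher for 12 of 27 tested genes and lower for 1, with a median of 0.35 against 0.04 over all genes. Cdkn1a, the p21 inhibitor of cyclin-dependent kinases, had 285, 381, 251, 574 and 547 in 3 mg/kg against 35.8, 43.4, 39.7, 67.8 and 65.6 in control. The groups did not overlap and the change was 2.63 ± 0.23 (adjusted p = 3.86e-05). Ccng1, cyclin G1, had 1729, 2853, 1710, 1871 and 2062 in 3 mg/kg against 709, 664, 711, 731 and 809 in control (1.45 ± 0.13, adjusted p = 3.86e-05). Plk2, a stress-regulated polo-like kinase, had 156, 160, 126, 130 and 165 in 3 mg/kg against 21.3, 30.5, 31.1, 22.9 and 28.8 in control (1.93 ± 0.10, adjusted p = 9.9e-07). Neither gene overlapped between the groups, and the lowest treated kidney was replicate 3 for each. Phlda3, a repressor of Akt signalling, rose by 1.61 ± 0.10, and the ubiquitin ligase Mdm2, which degrades p53, by 0.82 ± 0.09. The death genes Bbc3, which encodes PUMA, and Fas rose by 0.93 ± 0.09 and 0.91 ± 0.11. Sesn1, a stress-induced inhibitor of mTORC1, had 98.9, 76.0, 106, 89.3 and 77.1 in 3 mg/kg against 203, 146, 137, 141 and 131 in control. It fell by 0.66 on the log2 scale (SE 0.12, adjusted p = 0.00311), opposite to the other called targets, and a dimmer probe set of it was not called. Gadd45a, a growth arrest gene, changed by 0.38 ± 0.14 (adjusted p = 0.0734).

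Genes of cell division were higher, by small amounts from low signals. Of 25 tested mitosis genes, 17 were higher and 0 were lower, with a median of 0.54, while the background was 12.8%. The count ranged between 10 and 20 as single animals were left out, with 11 without 3 mg/kg replicate 5, 10 without control replicate 2, and 11 without control replicate 4 or 5. It was 5 without both control replicates 1 and 2. All treated kidneys lay above all controls for 5 of the 25 genes, against 9.41% of all genes. Top2a, a topoisomerase of dividing cells, had 74.3, 34.7, 96.4, 51.5 and 65.4 in 3 mg/kg against 29.1, 21.4, 44.8, 29.2 and 30.0 in control (0.75 ± 0.19, adjusted p = 0.0178). Mki67, the proliferation antigen Ki-67, had 114, 61.9, 117, 60.5 and 69.3 in 3 mg/kg against 40.7, 36.7, 68.3, 38.9 and 39.997 in control. Its change of 0.70 ± 0.19 had an adjusted p of 0.0205, and of 0.0508 without control replicate 2. For both genes control replicate 3 was the highest control and overlapped the treated range, and replicates 1 and 3 were the highest treated kidneys. Cdt1, a licensing factor of replication origins, rose by 0.66 ± 0.10 and the helicase-associated Mcm10 by 0.61 ± 0.07. Over DNA replication genes, 12 of 32 were higher and 2 were lower (7 and 6 higher without control replicate 4, and without control replicates 1 and 2). The lower count was 0 without 3 mg/kg replicate 4 or 5 or control replicate 4, and 1 without 3 mg/kg replicate 2 or control replicate 1, 2, 3 or 5. Pcna, the sliding clamp of DNA polymerase, changed by 0.09 ± 0.09 (adjusted p = 0.528) and cyclin D1, Ccnd1, by -0.18 ± 0.20 (adjusted p = 0.544).

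Immediate early and AP-1 factors, which respond within minutes to growth and stress signals, were higher for 15 of 24 tested genes and lower for 0, with a median of 0.69. Egr2, a zinc finger factor, rose by 1.90 ± 0.26 and Myc, a growth regulator, by 1.62 ± 0.26. Fos, a subunit of AP-1, had 345, 68.3, 466, 489 and 244 in 3 mg/kg against 57.1, 118, 29.2, 65.6 and 76.4 in control. It rose by 1.83 ± 0.44 (adjusted p = 0.0128), with treated replicate 2 inside the control range. Junb, another AP-1 subunit, rose by 1.14 ± 0.12 with no overlap. Jun changed by -0.41 ± 0.29 (adjusted p = 0.326).

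The thick ascending limb, which reabsorbs salt against a water-tight wall and carries calcium and magnesium between its cells, held the largest share of lower genes of the 38 lists. Of 20 tested genes, 15 were lower and 0 were higher, with a median of -1.02, against 9.05% lower over all genes. Between 14 and 16 were lower with any 1 animal left out, and 9 without both control replicates 1 and 2. This rank too is a description, since the lists were chosen with earlier results known. Umod, which encodes uromodulin, the most abundant urinary protein, had 785, 2.68, 921, 21.6 and 5.37 in 3 mg/kg against 2676, 3177, 2502, 2393 and 2606 in control. Replicates 2, 4 and 5 had almost no signal and replicates 1 and 3 kept part of it, and Umod fell by 4.71 on the log2 scale (SE 1.04, adjusted p = 0.00843). Nearly all of the spread lay in the 3 mg/kg kidneys, and the fit draws each gene's spread towards that of other genes, so this SE may be too small. Egf, the epidermal growth factor made by distal tubules, had 669, 45.0, 1314, 145 and 78.1 in 3 mg/kg against 2624, 2828, 2955, 2652 and 2773 in control (-3.52 ± 0.70, adjusted p = 0.00483). The order of the treated animals was that of Umod.

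Slc12a1, the furosemide-sensitive salt transporter NKCC2, had 1189, 25.8, 1160, 236 and 76.2 in 3 mg/kg against 2167, 2056, 1482, 1406 and 1435 in control. The groups did not overlap, and the change of -2.66 ± 0.80 had an adjusted p of 0.0332, which exceeded 0.05 when any of 7 animals was left out, up to 0.0824 (3 mg/kg replicates 4 and 5 and all 5 controls). Casr, the calcium-sensing receptor that sets calcium recovery in this segment, had 77.3, 4.47, 56.8, 12.0 and 1.95 in 3 mg/kg against 253, 229, 178, 145 and 166 in control (-2.48 ± 0.42, adjusted p = 0.00201). Ppp1r1a, an inhibitor of protein phosphatase 1, changed by -3.47 ± 0.62, and the potassium channel Kcnj1 by -1.67 ± 0.31. The tight junction claudins of this segment also fell, Cldn16 by 1.20 and Cldn10 by 0.99 on the log2 scale, while Cldn19 changed by 0.07 ± 0.30 (adjusted p = 0.885). Ptger3, a prostaglandin receptor, changed by -0.19 ± 0.21 (adjusted p = 0.542).

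In the distal convoluted and connecting tubule, 7 of 13 tested genes were lower and 3 were higher, with a median of -0.73. Slc12a3, the thiazide-sensitive salt transporter, had 348, 43.6, 500, 333 and 137 in 3 mg/kg against 903, 889, 807, 808 and 825 in control (-1.93 ± 0.46, adjusted p = 0.0124). Klk1, the tissue kallikrein of the connecting tubule, had 642, 224, 483, 327 and 230 in 3 mg/kg against 1622, 1574, 1713, 1550 and 1515 in control (-2.13 ± 0.24, adjusted p = 0.000195). All treated kidneys lay below all controls for both. The calcium buffer Calb1 changed by -1.52 ± 0.28, the sodium-calcium exchanger Slc8a1 by -2.03 ± 0.40 (another probe set of it changed less), and Kl, the FGF23 co-receptor klotho, by -1.29 ± 0.17. S100g, the other calcium buffer of these cells, went the opposite way, with 113, 185, 79.2, 313 and 200 in 3 mg/kg against 68.1, 64.5, 49.1, 53.8 and 55.2 in control (1.27 ± 0.26, adjusted p = 0.00647). Trpv5, the apical calcium channel, rose by 1.13 ± 0.18 on the probe set used, and by 0.03 ± 0.08 (adjusted p = 0.854) on its other probe set.

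In the collecting duct and intercalated cell list, 8 of 23 tested genes were lower and 2 were higher, with a median of -0.26. The count of lower genes was 5 without 3 mg/kg replicate 4, without control replicate 3 or 5, or without control replicates 1 and 2. Aqp2, the vasopressin-regulated water channel, had 979, 195, 1383, 1001 and 467 in 3 mg/kg against 1084, 1386, 1138, 1219 and 1404 in control. Replicates 2 and 5 were low and the others overlapped the controls (-0.89 ± 0.41, adjusted p = 0.136). Hsd11b2, which protects the mineralocorticoid receptor from glucocorticoids, changed by -0.91 ± 0.16, and the proton pump subunit Atp6v1b1 by -0.88 ± 0.08. Sgk1, a kinase that raises sodium channel activity, changed by -1.01 ± 0.23. Aqp4, a basolateral water channel, had 140, 225, 129, 219 and 215 in 3 mg/kg against 96.6, 67.5, 74.3, 86.9 and 109 in control (0.95 ± 0.17, adjusted p = 0.00242).

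**Figure D3:**
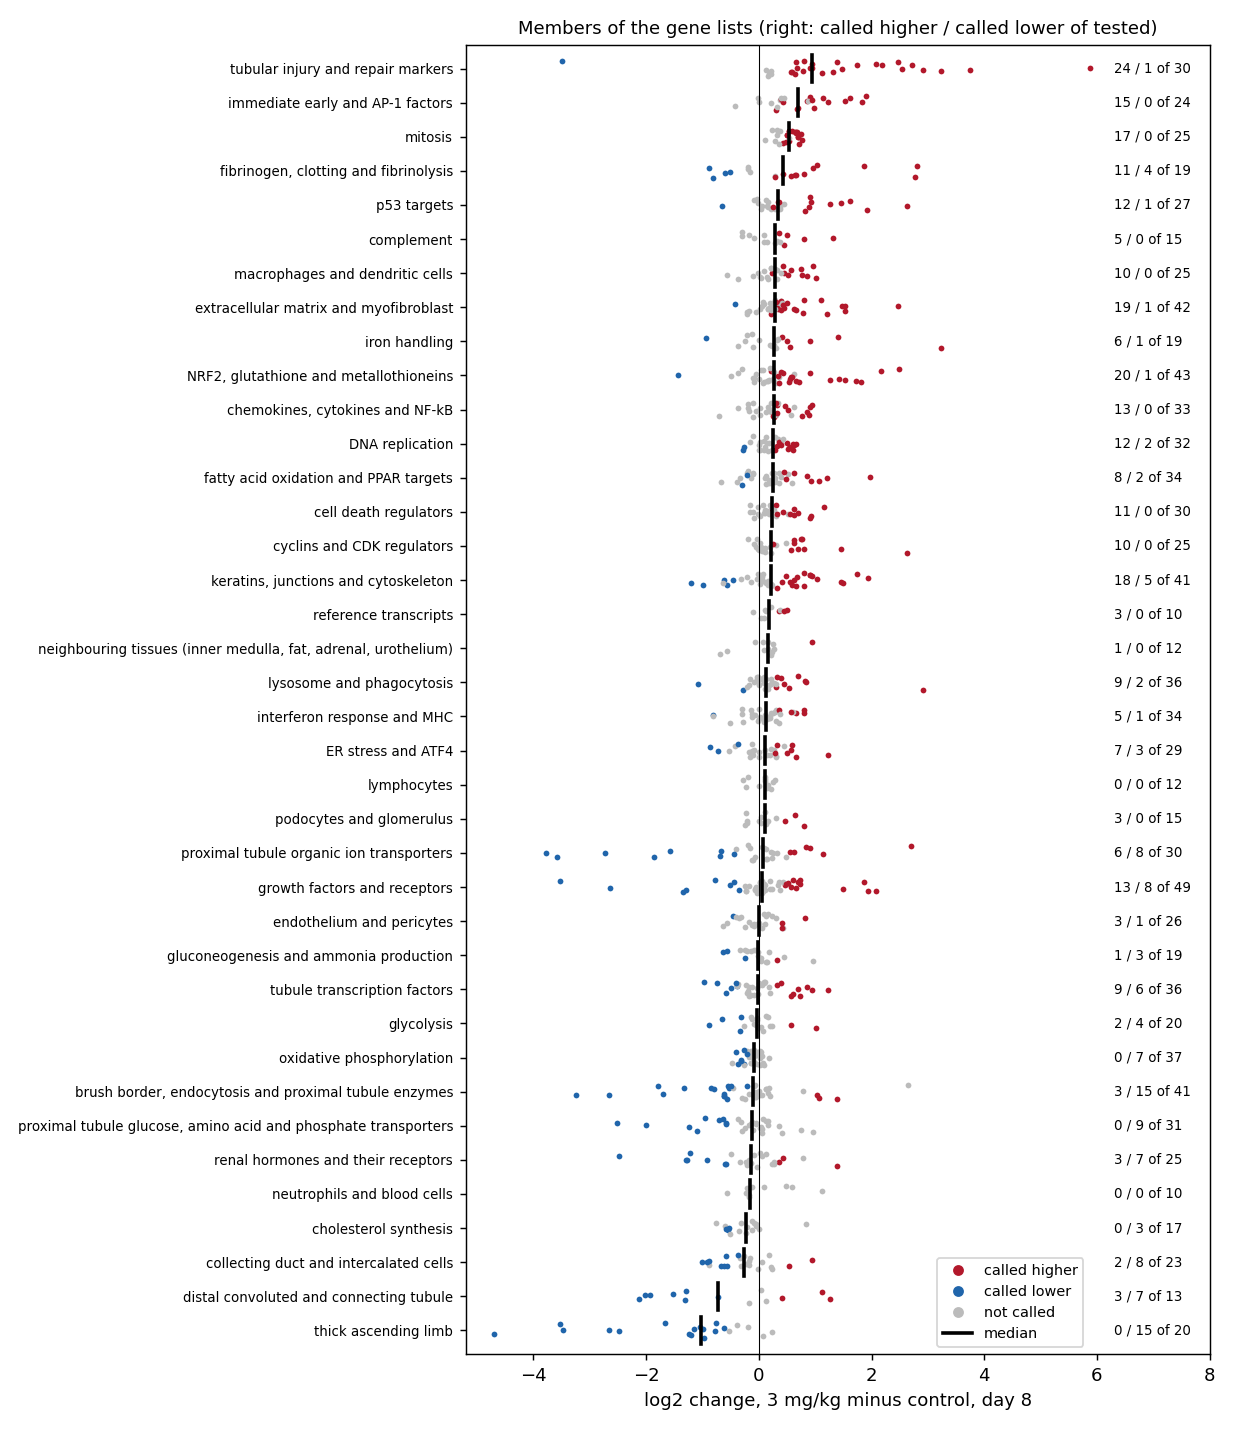
Log2 changes (3 mg/kg minus control, x axis) of the tested members of 38 gene lists, ordered by their median (black tick), with the number called higher and lower at the right. Injury markers have the highest median, 0.95, and thick ascending limb genes the lowest, -1.02, and the other lists lie between them.

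Of 30 tested organic ion transporters of the proximal tubule 6 were higher and 8 were lower (5 lower without control replicates 1 and 2). The organic anion transporting polypeptides were among the deepest falls on the array: Slco1a1 had 35.4, 4.32, 26.7, 3.51 and 3.81 in 3 mg/kg against 427, 680, 243, 176 and 254 in control (-3.58 ± 0.37, adjusted p = 0.00011). Slco1a6 had 78.7, 2.31, 109, 2.16 and 1.56 in 3 mg/kg against 949, 1140, 399, 233 and 275 in control (-3.78 ± 0.64, adjusted p = 0.00207). In both genes control replicates 1 and 2 were the highest controls, and replicates 1 and 3 the highest treated kidneys. Slc22a2, the organic cation transporter OCT2 through which cisplatin enters, had 288, 143, 283, 151 and 144 in 3 mg/kg against 967, 1147, 585, 473 and 688 in control. All treated kidneys were below all controls, and the change was -1.85 ± 0.26 (adjusted p = 0.000765). Slc31a1, the copper transporter CTR1, had 555, 718, 584, 393 and 471 in 3 mg/kg against 657, 721, 775, 759 and 724 in control. Its change of -0.43 ± 0.13 (adjusted p = 0.0331) lost its call when any of 6 animals was left out, with an adjusted p of up to 0.0804 (3 mg/kg replicates 4 and 5 and control replicates 2 to 5). Slc47a1, the apical exporter MATE1, changed by 0.09 ± 0.07 (adjusted p = 0.384), and the organic anion transporters Slc22a6 and Slc22a8 by -0.08 ± 0.14 and 0.21 ± 0.12 (adjusted p = 0.74 and 0.226).

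The apical export pump Abcc2, which carries glutathione conjugates, went the other way. It had 244, 1241, 133, 1035 and 450 in 3 mg/kg against 49.6, 52.6, 56.8, 64.8 and 61.5 in control, and rose by 2.70 ± 0.48 (adjusted p = 0.00278). Replicate 2, the lowest for Umod, was the highest for Abcc2. The urate and phosphate transporters Slc17a1 and Slc17a3 rose by 0.91 ± 0.15 and 1.14 ± 0.15 with no overlap.

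Of 31 tested carriers of glucose, amino acids and phosphate, 9 were lower and 0 were higher, with a median of -0.12. Without 3 mg/kg replicate 1 or 3 the higher count was 3, and without control replicates 1 and 2 the lower count was 5. Slc7a13, an amino acid carrier of the straight proximal tubule, had 830, 96.2, 1174, 269 and 185 in 3 mg/kg against 3193, 3361, 1787, 1237 and 1564 in control (-2.51 ± 0.57, adjusted p = 0.00981). Slc5a2, the glucose transporter SGLT2 of the convoluted part, had 537, 206, 591, 255 and 253 in 3 mg/kg against 751, 747, 925, 863 and 822 in control (-1.25 ± 0.25, adjusted p = 0.00546). Both groups were separate for each gene. Slc34a1, the main phosphate carrier, had 4031, 3871, 3839, 3952 and 3950 in 3 mg/kg against 3087, 3497, 3626, 3695 and 3735 in control. All treated kidneys lay above all controls by a small margin, and the change of 0.16 ± 0.06 was not called (adjusted p = 0.0986). Lrp2, the endocytic receptor megalin, changed by -0.02 ± 0.10 and the transcription factor Hnf4a by -0.01 ± 0.07 (adjusted p = 0.899 and 0.924).

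Among 41 tested brush border and enzyme genes, 15 were lower and 3 were higher (5 higher without 3 mg/kg replicate 3, and 8 lower without control replicates 1 and 2). Hnmt, which inactivates histamine, had 92.3, 6.87, 105, 11.7 and 9.24 in 3 mg/kg against 845, 788, 249, 264 and 294 in control (-3.24 ± 0.54, adjusted p = 0.00196). The peptidases Mep1b and Anpep changed by -2.66 ± 0.50 and -1.32 ± 0.22. The 3 members that rose are all cytochrome P450 enzymes: Cyp2e1 (1.04 ± 0.18), the fatty acid hydroxylase Cyp4a1 (1.07 ± 0.18) and Cyp27b1, which activates vitamin D (1.39 ± 0.37). Rbp4, the plasma carrier of retinol, had 37.9, 2445, 6.84, 2511 and 1234 in 3 mg/kg against 110, 88.9, 34.4, 8.59 and 43.9 in control. Replicates 2, 4 and 5 were far above every control, and replicates 1 and 3 were within or below the control range. Its change of 2.65 ± 1.23 was not called (adjusted p = 0.14).

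Other large falls lay outside these lists. Rgn, a calcium-binding lactonase, had 232, 57.7, 362, 83.2 and 92.2 in 3 mg/kg against 1040, 1353, 1069, 877 and 461 in control (-2.63 ± 0.42, adjusted p = 0.0016). Cdo1, which oxidises cysteine, changed by -2.29 ± 0.36 and Cyp2c11, a male-specific steroid hydroxylase in rats, by -2.27 ± 0.26. Among the rises outside the lists, Ugt2b7, which glucuronidates steroids and drugs, had 1305, 1629, 1159, 819 and 474 in 3 mg/kg against 82.8, 124, 125, 156 and 98.5 in control (2.95 ± 0.28, adjusted p = 6.1e-05). Vnn1, a pantetheinase, had 1358, 2283, 1144, 4113 and 4364 in 3 mg/kg against 504, 428, 646, 775 and 558 in control (1.98 ± 0.34, adjusted p = 0.00242). Replicates 4 and 5 were the highest for Vnn1 and the lowest for Ugt2b7.

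Genes regulated by NRF2, the oxidant-sensing transcription factor, and of glutathione handling were higher for 20 of 43 and lower for 1. The count was between 14 and 21 with any 1 animal left out and 11 without both control replicates 1 and 2. Gpx2, a glutathione peroxidase, had 335, 707, 295, 355 and 397 in 3 mg/kg against 45.6, 139, 36.6, 46.8 and 53.6 in control (2.49 ± 0.29, adjusted p = 0.000241). Srxn1, which repairs peroxiredoxins, had 187, 539, 101.05, 539 and 224 in 3 mg/kg against 44.5, 51.5, 37.8, 45.0 and 55.6 in control (2.17 ± 0.36, adjusted p = 0.00202), and less on another probe set. The quinone reductase Nqo1 rose by 1.53 ± 0.23, the glutathione transferase Gstm1 by 1.81 ± 0.34 and the aldose reductase-like Akr1b8 by 1.72 ± 0.27. Gclc, the catalytic subunit of the rate-limiting enzyme of glutathione synthesis, had 1716, 688, 1494, 856 and 596 in 3 mg/kg against 3181, 3528, 2498, 1996 and 2413 in control. It was the called member that fell (-1.43 ± 0.27, adjusted p = 0.0042), although it is itself a textbook NRF2 target. The promoter of Gpx2, the member with the largest rise, is shown with its match to TGACNNNGC, the core of the antioxidant response element, in capitals, as the 250 bases before the start (RefSeq, GRCr8).
Gpx2 (chr6:101230034-101230283, minus strand): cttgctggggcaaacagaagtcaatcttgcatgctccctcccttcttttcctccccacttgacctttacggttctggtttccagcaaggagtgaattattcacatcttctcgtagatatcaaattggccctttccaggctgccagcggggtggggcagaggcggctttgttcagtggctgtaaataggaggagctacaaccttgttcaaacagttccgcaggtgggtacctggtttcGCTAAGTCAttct
The match reads on the strand opposite to the gene and begins 13 bases before the start. Of the 35 tested list members with a promoter in the table, 8 (22.9%) held TGACNNNGC on either strand, against 10.2% of all 27457 promoters and 12.5% of the 9722 promoters of tested genes. Of these 8 genes 4 were called higher, and of the 27 without a match 11 were.

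Energy metabolism moved less. In oxidative phosphorylation 7 of 37 genes were lower, against 9.05% of all genes, and 0 were higher, with a median of -0.08. All 7 encode subunits of complex I. The largest was Ndufb10, with 914, 886, 873, 856 and 667 in 3 mg/kg against 1100, 1108, 1111, 1122 and 1092 in control (-0.40 ± 0.08, adjusted p = 0.0055). The count was 11 without 3 mg/kg replicate 2 and 20 with quantile normalization, so the number for these bright genes depends on the scaling. Among fatty acid oxidation and PPAR targets 8 of 34 were higher and 2 were lower (0 lower without 3 mg/kg replicate 2 or 4 or control replicate 3, 4 or 5, and 1 without control replicate 1 or 2), with 13 higher without 3 mg/kg replicate 1 or 3 and with quantile normalization. Angptl4, an inhibitor of lipoprotein lipase, had 176, 62.8, 171, 80.0 and 217 in 3 mg/kg against 17.7, 21.0, 23.5, 16.9 and 24.9 in control (1.98 ± 0.26, adjusted p = 0.000543). The peroxisomal enzyme Ehhadh rose by 1.21 ± 0.29. In glycolysis, Ldha, which makes lactate, rose by 0.57 ± 0.07, and Pfkm, a phosphofructokinase, fell by 0.66 on the log2 scale, with a dimmer probe set not called.

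Of 42 tested matrix and myofibroblast genes 19 were higher and 1 was lower, between 13 and 22 higher with any 1 animal left out. Tnc, the matricellular protein tenascin C, had 146, 177, 191, 133 and 114 in 3 mg/kg against 49.1, 52.9, 40.6, 38.7 and 39.2 in control (1.47 ± 0.13, adjusted p = 3.86e-05). Lox, which crosslinks collagen, rose by 1.54 ± 0.17, the actin-binding Tagln by 1.53 ± 0.18, fibronectin, Fn1, by 1.11 ± 0.12 and the proteoglycan Dcn by 1.21 ± 0.15. The fibrillar collagens Col1a1 and Col3a1 changed by 0.17 ± 0.14 and 0.25 ± 0.17 (adjusted p = 0.404 and 0.321). Acta2, the actin of smooth muscle and myofibroblasts, had 55.6, 95.5, 93.1, 94.1 and 74.4 in 3 mg/kg against 58.2, 39.5, 44.2, 37.9 and 51.5 in control. It rose by 0.65 ± 0.14 (adjusted p = 0.0066), with treated replicate 1 inside the control range. Of 41 keratin, junction and cytoskeleton genes 18 were higher and 5 were lower. Cldn4, a claudin of distal segments, had 242, 316, 164, 277 and 311 in 3 mg/kg against 57.004, 63.7, 50.8, 48.5 and 56.8 in control (1.93 ± 0.15, adjusted p = 2e-05). The tubulin Tubb6 and the laminin chain Lamb3 rose by 1.49 ± 0.13 and 1.46 ± 0.18, and the kidney cadherin Cdh16 fell by 0.62 on the log2 scale.

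Some markers of macrophages were higher and those of lymphocytes were not called. Of 25 macrophage and dendritic genes 10 were higher, 0 were lower and 15 were not called. The higher count was 6 without 3 mg/kg replicate 1, 3 or 5 or without control replicate 2 or 3. The part of these genes in the rises of other lists was not tested. The summed signal of the list was between 3459 and 5394 in 3 mg/kg and between 2982 and 3349 in control. A large part of this sum was 1 gene, Lyz2, with a mean signal of 1846 over the 10 arrays. Cd68, a lysosomal protein of macrophages, had 85.5, 94.3, 87.6, 70.3 and 74.6 in 3 mg/kg against 40.8, 33.9, 39.5, 49.7 and 49.5 in control (0.75 ± 0.10, adjusted p = 0.000604). Mrc1, a mannose receptor of resident and repair macrophages, rose by 0.97 ± 0.13 and the Fc receptor Fcgr2b by 1.02 ± 0.10. The set of macrophage markers also held Csf1r and Cd163, whose values are not given here. Aif1, a pan-macrophage protein, changed by -0.01 ± 0.26 and Cybb, the phagocyte oxidase, by 0.22 ± 0.17 (adjusted p = 0.982 and 0.374). Among 12 lymphocyte genes 0 were called, with summed signals between 126 and 301 in 3 mg/kg and between 164 and 207 in control. Cd3e, a chain of the T cell receptor complex that was picked after its values were seen, stood between 7.63 and 15.8 in 3 mg/kg and between 5.37 and 10.9 in control. Among 10 neutrophil and blood genes 0 were called, and the neutrophil gene S100a9, also picked afterwards, was 216 in 3 mg/kg replicate 2 against 16.6 to 54.8 in the other treated kidneys and 9.44 to 30.2 in control. The haemoglobin gene Hbb was between 548 and 2089 in 3 mg/kg and between 1105 and 2202 in control.

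Chemokine and NF-kB genes were higher for 13 of 33 and lower for 0 (1 and 3 lower without 3 mg/kg replicate 1 and 3), with higher counts between 6 and 8 without 3 mg/kg replicate 4 or without any 1 of the controls, and 3 without both control replicates 1 and 2. Ccl2, the monocyte chemoattractant, had 126, 84.9, 113, 72.7 and 79.4 in 3 mg/kg against 50.6, 57.2, 42.4, 44.2 and 31.6 in control (0.85 ± 0.15, adjusted p = 0.00248). The adhesion molecule Icam1 rose by 0.95 ± 0.13 and Cxcl1, a neutrophil chemokine, by 0.89 ± 0.15. The tumour necrosis factor receptor Tnfrsf1a had 372, 350, 335, 395 and 372 in 3 mg/kg against 155, 162, 139, 171 and 144 in control, a rise of 1.16 ± 0.07 (adjusted p = 4.18e-06). Cfi, which cleaves complement C3b, rose by 1.32 ± 0.20. Reference transcripts were not all level: the ribosomal genes Rplp0 and Rpl13a rose by 0.51 ± 0.09 and 0.45 ± 0.07, and the elongation factor Eef1a1 by 0.37 ± 0.07.

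The treated kidneys graded together in the falls. In all 20 of the largest falls, replicates 1 and 3 were the treated kidneys nearest to the control mean. The same held for 109 of the 131 genes that fell at least 2-fold (83.2%) and for 61 of the 136 that rose at least 2-fold (44.9%). It held for 2729 of all 11683 genes (23.4%). The sets of falls and rises were chosen on these same animals, and genes that vary together are not separate observations. These counts are therefore a description. The median of the thick ascending limb list was -0.50, -1.60, -0.44, -1.20 and -1.32 in treated replicates 1 to 5, and the median of the injury list was 1.17, 1.14, 0.73, 0.99 and 1.12. The injury markers were therefore high in replicate 1, which kept more of its thick ascending limb transcripts. Macrophage genes had medians of 0.61, 0.12, 0.55, 0.08 and 0.30. Mitosis genes had medians of 0.72, 0.32, 0.71, 0.25 and 0.51, so both lists were highest in replicates 1 and 3. Control replicate 3 had a mitosis median of 0.39, above treated replicates 2 and 4. Control replicate 4 had a macrophage median of 0.08, level with treated replicate 4. NRF2 and glutathione genes had medians of 0.18, 0.57, 0.12, 0.31 and 0.23, highest in replicate 2. Reference transcripts were also highest there, with medians of 0.09, 0.43, 0.07, 0.10 and 0.21. The high value of replicate 2 was therefore not particular to NRF2 and glutathione genes, and the part of array scaling in it was not tested. These medians describe 5 animals and were not tested.

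**Figure D4:**
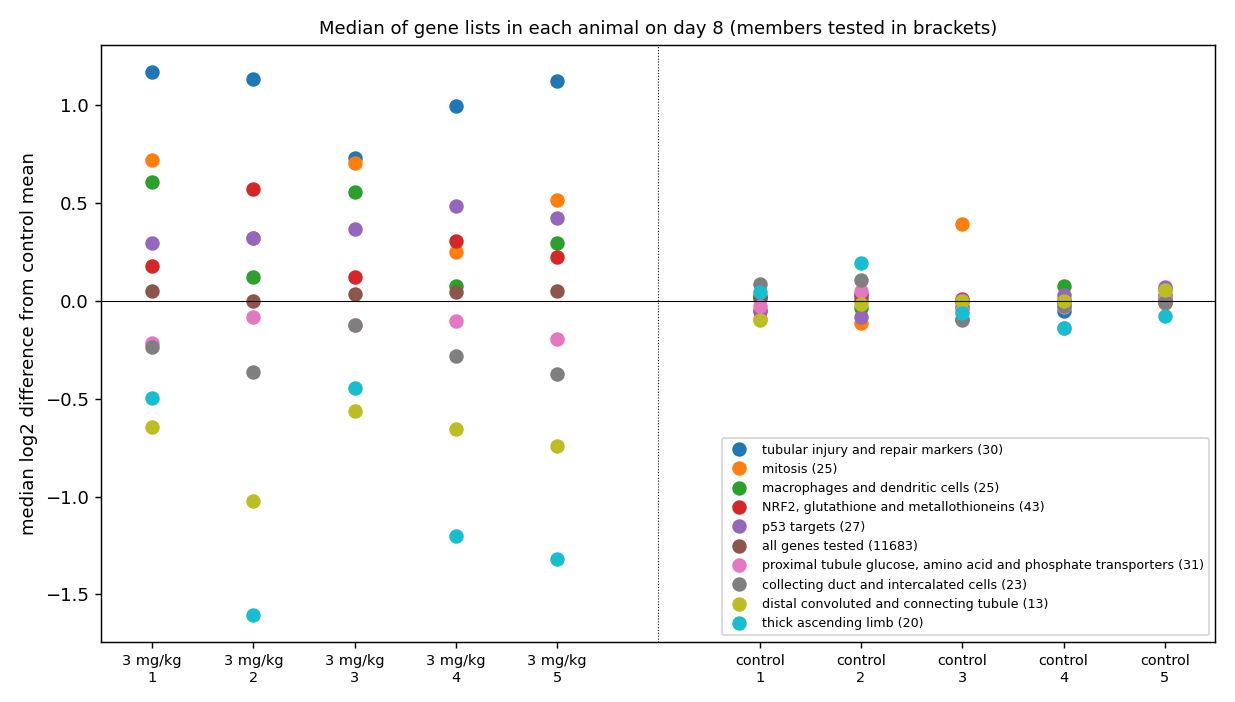
Median log2 difference from the control mean (y axis) of 9 gene lists and of all genes tested, in each treated kidney (left) and each control kidney (right). Thick ascending limb genes lie between -1.60 and -0.44 in the treated kidneys and within 0.20 of zero in the controls, and injury markers lie between 0.73 and 1.17 in the treated kidneys.

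The effect of 3 mg/kg differed between day 8 and day 5 for 1088 genes (9.31%), of which 573 (4.9%) were higher on day 8 and 515 (4.41%) were lower. The number was 725 without 3 mg/kg replicate 2 of day 5 and 1685 without 3 mg/kg replicate 3 of day 8. This contrast uses the day 8 arrays of the comparison above, and day 5 controls of its own. Umod had changed by 0.13 on day 3 and -0.08 on day 5, and the -4.71 of day 8 was followed by 0.15 on day 26. The difference between days 8 and 5 was -4.63 ± 1.12 (adjusted p = 0.0148). Slco1a1 ran at -0.66, -0.55, -3.58 and -0.23 on days 3, 5, 8 and 26, and Slc22a2 at -0.50, -0.24, -1.85 and -0.02 (adjusted p of day 8 against day 5 = 0.00114 and 0.00365). For these genes the fall was larger on day 8 than on day 5. Of thick ascending limb genes 11 of 20 differed between days 8 and 5, all of them lower on day 8.

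The rises had different courses. Clu ran at 0.16, 1.64, 3.74 and 0.48 on days 3, 5, 8 and 26, and was higher on day 8 than on day 5 (adjusted p = 0.0117). Gpnmb ran at 0.44, 0.87, 2.92 and 0.98 (adjusted p = 0.00904) and Fgb at 0.12, 0.92, 2.78 and 0.19 (adjusted p = 0.00602). Havcr1 ran at 3.47, 4.85, 5.88 and 2.22, with no called difference between days 8 and 5 (adjusted p = 0.173). Among p53 targets the values on day 3 were already large: Cdkn1a ran at 2.09, 2.29, 2.63 and 1.32, and Ccng1 at 1.84, 1.73, 1.45 and 0.43 (adjusted p of day 8 against day 5 = 0.486 and 0.258). Over the 136 genes that rose at least 2-fold on day 8, the median was 0.27, 0.57, 1.38 and 0.20 on days 3, 5, 8 and 26. Over the 131 that fell it was -0.17, -0.21, -1.38 and -0.05. Both sets were chosen on day 8, so their day 8 median is a description.

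**Figure D5:**
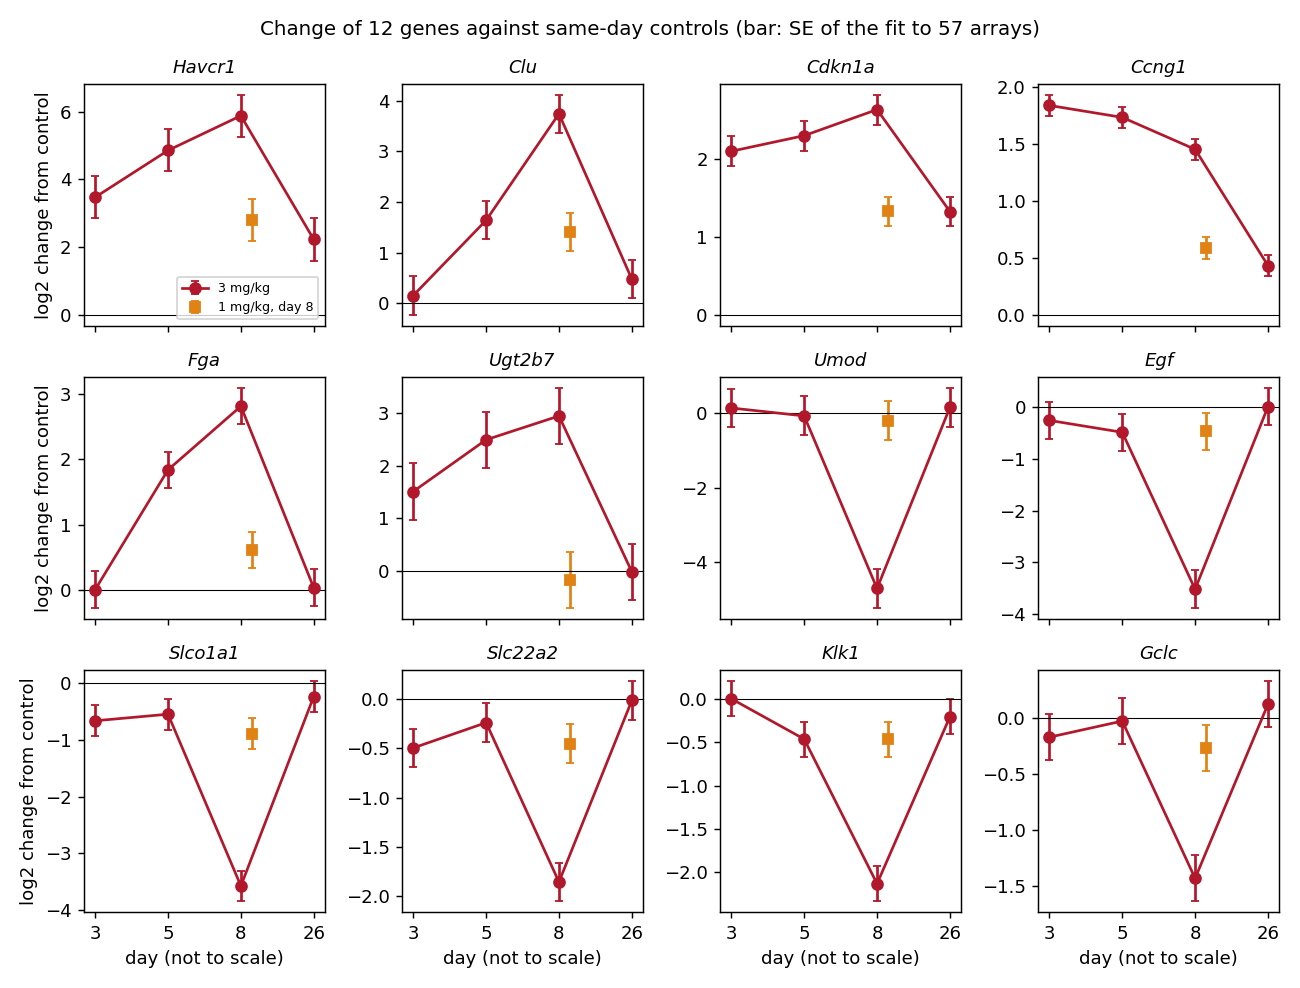
Log2 change of 12 genes against same-day controls (y axis) for 3 mg/kg on days 3, 5, 8 and 26 (red circles) and for 1 mg/kg on day 8 (orange squares); bars are the standard error pooled over 57 arrays, which is too small for Umod on day 8. Havcr1, Cdkn1a and Ccng1 lie above zero on every day shown, whereas Umod, Egf, Slc22a2 and Gclc drop on day 8 and lie near zero on day 26.

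Between the doses on day 8, 1360 genes (11.6%) differed, 698 (5.97%) higher and 662 (5.67%) lower in 3 mg/kg than in 1 mg/kg. The number was 662, 772 and 743 without 1 mg/kg replicate 2, 4 or 5, and 2049, 817 and 780 without 3 mg/kg replicate 3, 4 or 5. The contrast shares its 3 mg/kg arrays with the comparison above, and both doses share the controls. Against those controls, Havcr1 changed by 5.88 at 3 mg/kg and 2.80 at 1 mg/kg, Clu by 3.74 at 3 mg/kg and 1.42 at 1 mg/kg, and Cdkn1a by 2.63 at 3 mg/kg and 1.32 at 1 mg/kg. Umod had -4.71 at 3 mg/kg and -0.21 at 1 mg/kg, Egf -3.52 at 3 mg/kg and -0.47 at 1 mg/kg, and Slc22a2 -1.85 at 3 mg/kg and -0.45 at 1 mg/kg. The adjusted p between doses was 0.0252 for Havcr1, 0.00517 for Cdkn1a, 0.00694 for Umod and 0.00682 for Slc22a2. Ugt2b7 had 2.95 at 3 mg/kg and -0.17 at 1 mg/kg (adjusted p = 0.00404). Egr1, an immediate early factor, had 1.53 at 3 mg/kg and 1.48 at 1 mg/kg, and Fos had 1.83 at 3 mg/kg and 1.85 at 1 mg/kg (adjusted p = 0.959 and 0.986), so the fit called no dose difference for them. The call on Egr1 against control was lost without control replicate 1 or 3 (adjusted p up to 0.0575).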

How the data were processed

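Gene expression was measured on 57 single-animal arrays, of which 10 carry the main comparison, 5 per group. The deposited values are linear signal intensities per probe set, for which the submitters' processing notes name MAS5 (version and settings: not given in the sources used here). On the files, every array had the same trimmed mean. Array number limits the precision. Values were taken as log2(signal + 16). Of 31099 probe sets, 57 controls were left out. Of the remaining probe sets, 21829 above the 40th percentile on 3 or more of the 57 arrays were kept. One gene symbol was listed for 20826 probe sets, several for 436 and none for 9780, and the probe set with the highest mean signal stood for its gene, leaving 11683 genes.

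Groups were compared with limma 3.58.1 in R 4.3.3 (lmFit, eBayes with trend) on the 10 arrays, with Benjamini-Hochberg adjustment over all genes, and ± is the standard error of that fit. The day and dose contrasts were fitted on the arrays of their own groups, with the same test. An exact permutation test of each gene over 252 arrangements was run beside it (two-sided, smallest p 0.00794). The fit was tested on simulated data of 11683 genes, with 100 genes changed by 1 and 100 by 2 on the log2 scale. It recovered 94% of the genes changed by 1 and 100% of those changed by 2, with 23 false calls. The false calls were a larger share of the simulated calls than the adjusted p threshold used here. The counts of called genes may therefore hold more false calls than that threshold implies. The members and the gene lists were chosen with earlier results of these data known. The genes named are the 20 largest rises and falls that do not overlap, up to 6 called members of each list, up to 3 of the opposite direction and up to 3 bright members not called, the 6 largest each way for the day and dose contrasts, and a fixed set of injury, segment and control genes. Replicates are labelled as separate animals. Same-numbered animals of the groups did not deviate together (r between -0.09 and 0.09), so no pairing by number was seen. The check could miss an effect that is small beside the spread of the treated kidneys. Promoters were searched over 250 bases, on both strands, taking the first start listed for each gene (RefSeq, GRCr8). Alternatives covered the offset, scaling, filter, probe set rule, variance model, arrays fitted, replicate block and animals left out.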

Additional observations from a re-analysis of the deposited data

Results flagged for a closer look

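In 18 of 312 groups of 5 kidneys (156 genes named in the text, in 3 mg/kg and in control), 1 animal lay far from the rest on the log2(signal + 16) scale, by the share of the group's range that its gap to the nearest other takes. Chance alone marks about 1 group in 20, so the count of 18 is near what chance gives. Any single flag below may be chance. Among treated kidneys, replicate 3 was low for Lamb3 (18.2 against 43.3 to 48.3, gap share 0.870) and Fas (0.812). Replicate 2 was high for Gstm1 (678 against 146 to 215, gap share 0.756), replicate 1 for Tubb6 (0.793) and replicate 5 for Upk3a (0.764), and replicate 5 was low for Ndufb10 (0.790). Control replicate 3 stood high for the division genes Ccna2 (66.9 against 18.9 to 25.2, gap share 0.809), Mki67 (0.845) and Pcna (0.863), and for Bbc3 (0.774). Control replicate 1 stood low for Mdm2 (0.784) and Cyp4a1 (0.774), and high for Sesn1 (0.759) and S100a9 (0.830). Control replicate 2 was high for Gpx2 (138.7 against 36.6 to 53.6, gap share 0.741), replicate 3 was low for F2 (0.806) and replicate 4 was low for Adipoq (0.751) and Tubb6 (0.720).

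The 3 mg/kg effect differed between days 8 and 5 for 68 of the 150 named genes with this test, by the limma interaction at an adjusted p of 0.05 over all genes. The values that follow are day 8 minus day 5 on the log2 scale. In the thick ascending limb they were -4.63 for Umod, -3.03 for Egf, -3.13 for Ppp1r1a, -1.93 for Casr, -1.43 for Kcnj1, -1.49 for Cldn16 and -0.84 for Cldn10. In distal and collecting segments they were -2.02 for Slc12a3, -1.67 for Klk1, -1.42 for Slc8a1, -1.01 for Calb1, -0.96 for Kl, -0.78 for Hsd11b2, -0.57 for Atp6v1b1 and -0.90 for Irx1, with 1.14 for Aqp4 and 1.18 for Trpv5. In the proximal tubule they were -3.18 for Slco1a6, -3.03 for Slco1a1, -2.66 for Hnmt, -2.44 for Mep1b, -2.25 for Slc7a13, -1.61 for Slc22a2, -1.40 for Gclc, -1.20 for Anpep, -1.17 for Slc5a2, -0.99 for Agt, -1.95 for Cdo1, -1.34 for Cyp2c11 and -0.63 for Cdh16, with 2.04 for Abcc2, 1.90 for Cyp27b1, 1.74 for Vnn1, 0.65 for Slc17a3, 0.60 for Slc17a1, 0.81 for Cyp2e1, 0.76 for Cyp4a1, 1.23 for Ehhadh and 0.26 for Pck1. Injury, matrix and junction genes had 2.10 for Clu, 2.04 for Gpnmb, 1.60 for Lcn2, 1.46 for Timp1, 1.54 for Krt18, 1.50 for S100a6, 1.21 for Cldn4, 1.17 for Lox, 0.91 for Tnc, 0.91 for Dcn, 0.77 for Fn1 and 0.92 for Acta2, against -3.36 for Tff3 and -1.46 for Sfrp2. Plasma protein and immune genes had 1.85 for Fgb, 1.37 for Fgg, 1.05 for Cp, 0.94 for Cfi, 1.00 for Mrc1 and 0.78 for Fcgr2b, against -0.84 for Proc and -0.77 for Serpinf2. The rest were 1.47 for Gstm1, 0.67 for Ccnb1, 0.57 for Mcm10, 0.42 for Bbc3, 0.25 for Eef1a1, -0.54 for Ndufb10 and -1.01 for Glb1.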

How the results depend on the processing

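The number of called genes, 2553, ranged between 1832 and 2962 when any 1 animal was left out, and the number changed at least 2-fold, 267, between 226 and 339. It was 4360 with all 57 arrays in the fit, 1911 with the exact permutation test, and 1361 without control replicates 1 and 2 together, an alternative chosen after seeing the data. The 1911 were 1099 higher and 812 lower, the same numbers as the genes whose groups do not overlap. Only such genes reach the smallest p of the exact test, so its count restates that separation. The 2-fold count was 566 with no offset and 119 with an offset of 64. The day 8 minus day 5 count, 1088, was 1909 with all 57 arrays, and ranged between 725 and 1685 with 1 animal left out. The dose count, 1360, was 2704 with all 57 arrays, and ranged between 662 and 2049 with 1 animal left out. The cause of these shifts was not tested. With the replicate number as a block, the counts were 2058, 268, 1023 and 1172 for the main, 2-fold, day and dose comparisons. No pairing of the animals by number was seen. The rule for named genes picked more genes than the text describes. None of the 218 of them called changed direction under the alternatives run, and between 190 and 211 stayed called with 1 animal left out, and 156 without control replicates 1 and 2. Among genes in the text, probe sets differed by over 1.5 times or in their call for Cp, Fga, Gclc, Hnf4a, Nrg1, Pfkm, Ppp1r1a, Sesn1, Slc31a1, Slc8a1, Srxn1 and Trpv5. Signals near the floor, such as Havcr1 in control, give no reliable level, and the offset shrinks their fold change.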

Other observations

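Hormone genes of the kidney were called lower more often than higher. Of 25 tested hormone and receptor genes 3 were higher and 7 were lower in 3 mg/kg, against 12.8% higher and 9.05% lower over all genes. The higher share was near that of all genes. Without control replicates 1 and 2 the counts were 1 higher and 6 lower. Cyp27b1, which makes active vitamin D, had 17.0, 106, 20.5, 44.0 and 135 in 3 mg/kg against 9.56, 6.01, 8.63, 11.3 and 12.2 in control, with replicates 2 and 5 highest. Ptgs2, the inducible cyclooxygenase of the macula densa, had 29.5, 5.78, 37.3, 23.6 and 15.6 in 3 mg/kg against 69.9, 67.5, 86.7, 78.3 and 63.2 in control, and all treated kidneys lay below all controls (-1.28 ± 0.20, adjusted p = 0.00149 by limma). Agt, which encodes angiotensinogen, had 19.0, 2.57, 20.9, 7.495 and 10.9 in 3 mg/kg against 68.0, 65.5, 38.6, 38.2 and 36.3 in control (-1.22 ± 0.21, adjusted p = 0.00201 by limma). Nr3c2, the mineralocorticoid receptor, changed by -0.58 ± 0.12.

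Among 49 tested growth factor and receptor genes 13 were higher and 8 were lower. Sfrp2, a secreted Wnt antagonist, had 49.2, 8.33, 54.6, 28.05 and 14.2 in 3 mg/kg against 220, 251, 280, 242 and 268 in control, a change of -2.63 ± 0.26 with wide separation. Igf1, insulin-like growth factor 1, had 97.5, 57.9, 115, 40.6 and 54.5 in 3 mg/kg against 210, 188, 208, 191 and 205 in control (-1.35 ± 0.19). Igfbp1, which binds it, rose by 1.93 ± 0.31. Nrg1, a ligand of ErbB receptors, rose by 1.87 ± 0.30 on the probe set used and by less on its others, and Inhbb, a subunit of activin B, rose by 1.50 ± 0.27. In the cyclin list 10 of 25 were higher (3 without control replicates 1 and 2) and 0 were lower, Ccna2 by 0.80 ± 0.21 and Ccnb1 by 0.70 ± 0.15. In the cell death list 11 of 30 were higher and 0 were lower, among them Ripk3, a kinase of necroptosis, by 0.63 ± 0.12.

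Of 36 lysosome genes 9 were higher and 2 were lower, against 12.8% higher and 9.05% lower over all genes, shares that apply to each list of this paragraph. The lysosome higher count was 4 without control replicates 1 and 2 and 15 with all 57 arrays in the fit. The lower share was no more than that of all genes. The protease Ctsd had 2534, 2042, 2220, 2888 and 2492 in 3 mg/kg against 1232, 1420, 1326, 1324 and 1491 in control (0.83 ± 0.09), while the glycosidase Glb1 changed by -1.08 ± 0.19. In iron handling 6 of 19 were higher and 1 was lower (3 lower without control replicate 4): the ferroxidase Cp rose by 1.41 ± 0.10, and by more on another probe set, and the transferrin receptor Tfrc changed by -0.94 ± 0.20. Of 36 tubule transcription factors 9 were higher and 6 were lower, and the lower count was 3 without 3 mg/kg replicate 5 or without control replicate 1, 2, 3 or 5. Runx1 rose by 0.95 ± 0.14 and Irx1 changed by -0.98 ± 0.25. In endoplasmic reticulum stress genes 7 of 29 were higher and 3 were lower, and the lower count was 5 without 3 mg/kg replicate 1 or 3. Cholesterol synthesis had 3 lower of 17, with 1 when 3 mg/kg replicate 5 was left out, 5 when replicate 3 was and 9 when replicate 2 was.

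Interferon and antigen presentation genes were higher for 5 and lower for 1 of 34, against 12.8% higher and 9.05% lower over all genes, so the higher share was near that of all genes. The higher count was 10 without 3 mg/kg replicate 2, and the lower count was 2 without 3 mg/kg replicate 1 or 3 and 0 without 3 mg/kg replicate 4 or 5 or control replicate 3. Irf1, an interferon-induced factor, rose by 0.81 ± 0.16 and the antiviral Rsad2 changed by -0.82 ± 0.22. The call on Rsad2 was lost when 3 mg/kg replicate 4 or 5 or control replicate 3 was left out (adjusted p up to 0.0534 by limma). Complement genes were higher for 5 and lower for 0 of 15, 8 higher when 3 mg/kg replicate 2 was left out, and 3 when 3 mg/kg replicate 3 or 5 or any of control replicates 1 to 4 was. Endothelial genes were higher for 3 and lower for 1 of 26 (2 and 4 lower without 3 mg/kg replicate 1 and 3, 2 without control replicate 4), no more than the shares of all genes, with the adhesion molecule Sele up by 0.82 ± 0.13. Podocyte genes were higher for 3 and lower for 0 of 15, with 5 without 3 mg/kg replicate 2. In glycolysis 2 of 20 were higher and 4 were lower, and the lower count was 2 without 3 mg/kg replicate 4 or 5 or control replicate 3, 4 or 5. In gluconeogenesis 1 of 19 was higher and 3 were lower, and the lower count was 0 when 3 mg/kg replicate 4 or control replicate 3, 4 or 5 was left out, and 1 for the other animals except 3 mg/kg replicates 1 to 3. Pck1, its rate-limiting enzyme, rose by 0.32 ± 0.07. Among markers of neighbouring tissues 1 of 12, Aqp4, was higher, and among reference transcripts 3 of 10 were.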
